A study of Mus musculus with 18 samples.

Results

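A set of 6 circular RNAs of mouse liver whose 4 host genes act on lipids were followed across 3 groups of mice: 1 from Mlxipl, 1 from Gramd1c, 2 from Acer3 and 2 from Tlcd4. A circular RNA is a closed loop in which a downstream end is joined back to an upstream one, and it is counted by reads that cross that junction. The members were chosen by position, with earlier results of these data known. The Mlxipl and Gramd1c circles were named by their coordinates, and every circle with both ends inside the GRCm38 locus of Acer3 or Tlcd4 (older symbol Tmem56) was taken. This gave 6 of the 434 circular RNAs in the table, and no other circle in it has 1 of these 4 hosts.

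All animals were male C57BL/6 mice, 6 weeks old at the start. Of 45 mice, 15 per group, the livers of 6 per group were sequenced in week 22. Controls were given water by gavage and olive oil into the peritoneum; the CCl4 group was given water and carbon tetrachloride (CCl4), a toxin that injures hepatocytes and was used to induce liver cancer; the CCl4+PZH group was given CCl4 with PZH by gavage, the drug Pien Tze Huang of traditional Chinese medicine. The sample labels and the growth protocol write PTH for this drug, which was taken as the same treatment. No group received PZH without CCl4. Whole liver was sequenced, and the labels do not say whether a tumour or the tissue around it was taken.

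The 4 hosts stand at different points of lipid metabolism. Mlxipl encodes ChREBP, a transcription factor that in liver responds to carbohydrate and, with its partner Mlx, switches on genes of glycolysis and fatty acid synthesis. Gramd1c belongs to the GRAMD1 (Aster) family of endoplasmic reticulum proteins that carry cholesterol from the plasma membrane at membrane contacts. Acer3 encodes an alkaline ceramidase, an enzyme that splits ceramide into sphingosine and a fatty acid. Tlcd4 encodes a membrane protein with a TLC domain, a fold it shares with the ceramide synthases. The level of a circle is not that of its host mRNA, which was not analysed here.

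The Mlxipl circle spans 2512 bp at chr5:135121506-135124017 on GRCm38.p6, inside a gene on the plus strand of 49879 bp, and 33.2% of all 434 spans were shorter. Both annotated Mlxipl start sites lie upstream of it, at 31.62 kb and 14.62 kb, and are 17001 bp apart, so the circle is downstream of either. The 250 bases before each are shown because ChREBP and Mlx bind sites built from the E-box CACGTG. The sequences are from RefSeq (GRCm38.p6), plus strand, 5′ to 3′, with CACGTG in capitals.
Mlxipl upstream start, chr5:135089640-135089889: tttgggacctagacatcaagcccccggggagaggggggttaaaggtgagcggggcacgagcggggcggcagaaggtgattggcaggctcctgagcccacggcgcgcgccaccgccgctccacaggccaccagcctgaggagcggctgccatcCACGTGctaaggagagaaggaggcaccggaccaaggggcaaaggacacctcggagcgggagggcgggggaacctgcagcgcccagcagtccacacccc
Mlxipl downstream start, chr5:135106641-135106890: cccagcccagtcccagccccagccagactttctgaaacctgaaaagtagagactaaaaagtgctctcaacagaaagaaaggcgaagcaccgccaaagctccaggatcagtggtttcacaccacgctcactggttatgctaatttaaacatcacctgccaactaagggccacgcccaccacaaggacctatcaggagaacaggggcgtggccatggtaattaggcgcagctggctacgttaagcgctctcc
CACGTG, which reads the same on both strands, occurs 1 time before the upstream start, with its first base 98 bases before it, and not in the window before the downstream start. Of 32851 annotated start windows of the same length, 1978 (6.02%) hold the motif. A match in letters is a description of the sequence and was not tested as a binding site.

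The Gramd1c circle spans 11480 bp at chr16:44028679-44040158 in a gene on the minus strand, and 75.1% of all spans were shorter. One annotated start lies 1.85 kb upstream of it, and the other 2 lie downstream of the whole circle, the nearer by 0.73 kb. The circle thus lies outside transcripts begun at those 2. The window before the start upstream of the circle holds no CACGTG, and those before both downstream starts hold 1 each, shown with their flanks on the minus strand.
Gramd1c start nearer the circle, chr16:44027991-44028050: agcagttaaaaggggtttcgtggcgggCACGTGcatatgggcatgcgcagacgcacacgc
Gramd1c start farther from the circle, chr16:44016582-44016641: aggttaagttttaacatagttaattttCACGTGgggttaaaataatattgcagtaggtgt
The Acer3 circles span 22299 bp (chr7:98243949-98266247) and 13829 bp (chr7:98243949-98257777), and they share their downstream end, the gene being on the minus strand. Of all spans, 89.2% and 80.6% were shorter than these. Both Acer3 starts lie upstream of both circles, and neither window holds CACGTG. The Tlcd4 circles span 7455 bp (chr3:121228310-121235764) and 722 bp (chr3:121235043-121235764). They share their upstream end, also on the minus strand, and the shorter lies wholly inside the longer. The 2 Tlcd4 starts lie 27.58 kb and 27.4 kb upstream of both circles, and the first has 1 CACGTG before it, shown on the minus strand.
Tlcd4 start, chr3:121263415-121263474: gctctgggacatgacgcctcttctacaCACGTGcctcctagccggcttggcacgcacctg
The deposited coordinates carry no strand, and circles of a host and of any antisense gene over it would look alike. Exons inside the spans were not used here.

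**Figure D1:**
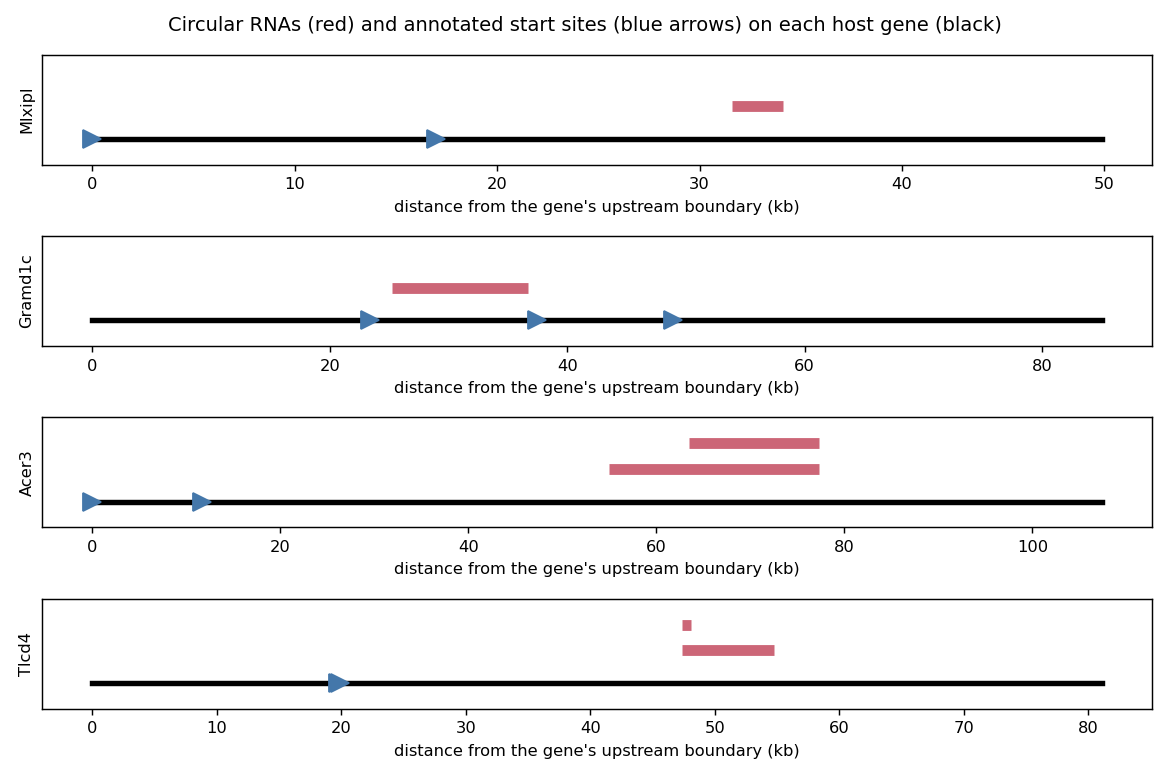
Position of the 6 circular RNAs (red bars) and the annotated start sites (blue arrows) on the 4 host genes (black lines), as distance in kb from each gene's upstream boundary. The Gramd1c circle lies upstream of 2 of 3 starts, while the other circles lie downstream of every start of their host.

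Levels are given in CPM, back-splice reads scaled by the authors to a library total, and in recovered reads, since every value was a whole multiple of the value of 1 read. Recovered reads numbered 900 to 2840 per library over all 434 circles, and summed CPM ran from 40.4 (control 3) to 550 (control 4), so the controls held both extremes. Because of this spread, each level is also given per 1000 reads of the table. By counting error alone, a value of 0 leaves room for 3 reads at most. That is 0.135 CPM in control 3 (its library total is the highest) and 0.515 CPM in CCl4+PZH 8. This limit and the intervals of shares cover counting error only, since PCR copies are not independent molecules. The Gramd1c circle had zeros where 31.8, 38.9 and 33.3 reads would be counted at the median share of its group. The limit thus need not bound the level where a 0 has another cause. The labels name separate mice by number only, so the p-values measure the spread between these samples.

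By mean level over all 18 libraries the order was Gramd1c, Tlcd4 longer, Acer3 longer, Mlxipl, Tlcd4 shorter and Acer3 shorter, at ranks 3, 11, 112, 136, 209 and 262 of 434. Gramd1c, at 3.89 ± 3.43 CPM (SD, n = 18), exceeded the longer Tlcd4 circle, at 1.55 ± 1.26 CPM, in 14 of 18 libraries. The longer Tlcd4 circle exceeded the longer Acer3 circle, at 0.524 ± 0.610 CPM, in 15 of 18. Below that the order was loose: the longer Acer3 circle exceeded Mlxipl in 9 libraries and was below it in 8, and the shorter Tlcd4 circle exceeded the shorter Acer3 circle in 8 and was below it in 6. The shorter circles rested on 39 reads (Tlcd4) and 26 reads (Acer3) in all, against 524 for Gramd1c, 231 for the longer Tlcd4 circle, 72 for the longer Acer3 circle and 68 for Mlxipl.

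The Mlxipl circle, from the gene of the transcription factor, was present in 6 of 6 controls, in 2 of 6 CCl4 livers and in 5 of 6 CCl4+PZH livers. Controls held 0.326 to 1.22 CPM, with a median of 0.867. CCl4 livers held 0 in replicates 1, 2, 4 and 8, 0.0874 in replicate 7 and 0.612 in replicate 5. CCl4+PZH livers held 0 to 0.882 CPM, with a median of 0.293. The means were 0.816 ± 0.402, 0.117 ± 0.245 and 0.399 ± 0.344 CPM (SD, n = 6 each), from 45, 6 and 17 reads. Of the CCl4 libraries, 5 of 6 had listed values below every control, and replicate 5 lay among them. By counting error alone, the zeros of CCl4 1, 2 and 4 leave room for 0.429, 0.438 and 0.411 CPM, above the lowest control at 0.326.

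Per 1000 table reads the Mlxipl circle ran from 0.704 to 17.8 in controls (median 4.31), from 0 to 3.49 in CCl4 livers (median 0) and from 0 to 3.51 in CCl4+PZH livers (median 2.04). The highest value was that of control 3, the library of fewest reads. By mean CPM it ranked 85 of 434 in controls, 350 in CCl4 livers and 160 in CCl4+PZH livers.

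For CCl4 against control, limma on log2(CPM + 0.13655), a scale that understates the change of low values, gave Mlxipl a difference of −2.15 (SE 0.70, 95% interval −3.52 to −0.78). The unadjusted p was 0.00214, which ranked 6 of 434, and the adjusted p was 0.155, so the difference did not pass the threshold of 0.05 after Benjamini-Hochberg adjustment over all 434. The median difference of all 434 was −0.28, and relative to it Mlxipl stood at −1.86. An exact two-sided permutation test over the 12 libraries gave p = 0.00649, which adjusted over 434 is 0.47. With values scaled to the reads of the table, where the median of all was −0.03, Mlxipl was at −2.21 and passed in limma (adjusted p = 0.0436), the only passing value of any member under any alternative setting. Over all 35 alternatives the Mlxipl difference ran from −3.46 to −0.70, with limma, edgeR, DESeq2 and permutation adjusted p-values of 0.0436 to 0.47. Controls 2, 3 and 4 have sample records of a later accession range, and with controls 1, 5 and 8 alone the Mlxipl difference was −2.19 (limma, adjusted p = 0.239).

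Circles of the listed hepatocyte genes moved in the same direction. The list was chosen with earlier results of these data known, so this is a description and not independent support. Of 21 hepatocyte genes listed, 5 (Ces1c, Cth, Cyp1a2, Kng2 and Slco1b2) had circles in the table, 6 in all, while defining genes such as Alb, Apoa1 and Ttr had none. Their summed level was 15.8 to 30.9 reads per 1000 in the control group, 2.69 to 11.8 in CCl4 livers and 7.86 to 22.6 with CCl4+PZH. How often other sums of 6 circles differ as much between control and CCl4 livers was not counted. In CPM the control and CCl4 ranges overlapped, at 0.943 to 11.9 and 0.411 to 1.61. In CCl4 against control 6 of 6 had negative differences with a median of −1.47, against 62.9% and −0.28 over all 434. With each library centred on its own median 5 of 6 had, against 33.9% of all. None passed limma's adjusted threshold, and edgeR and DESeq2 called 0. At an unadjusted p under 0.05, 4 of 6 were lower, against 6.22% of all 434. Abcc2, a transporter of the sterol list below that the hepatocyte list leaves out, had circles at 1.23 (limma, adjusted p = 0.60) and −0.16 (adjusted p = 0.97). Circles of macrophage genes, 4 in 2 of 13 genes (Adgre1 and Mertk), summed to 0 to 5.30 reads per 1000 in controls, 4.30 to 30.5 in CCl4 livers and 5.50 to 12.8 in CCl4+PZH livers. Ikzf1, the only lymphocyte gene of 15 with a circle, ran from 0 to 1.76 reads per 1000 in controls, from 0 to 8.10 in CCl4 livers and from 1.45 to 6.42 in CCl4+PZH livers. The lists for stellate cells and matrix (14 genes), endothelium (11 genes) and bile duct (8 genes) had 0 circles. In bulk liver, fewer cells of a type and less RNA per cell cannot be told apart, and the part of cell makeup in the Mlxipl values was not tested.

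In treated against CCl4 livers the Mlxipl difference was 1.15 (95% interval −0.22 to 2.53; limma, adjusted p = 0.804), with the 2 highest treated livers, at 0.882 and 0.754 CPM, above every CCl4 liver, while per 1000 table reads 1 treated liver was, at 3.51 against 3.49 in CCl4 5. Against control, 4 of 6 treated livers lay below every control in CPM, but 1 of 6 per 1000 table reads. The zero among them, CCl4+PZH 2, leaves room by counting error alone for 0.377 CPM, above the lowest control at 0.326. The Mlxipl difference against control was −0.995 (95% interval −2.37 to 0.38, limma, adjusted p = 0.878). These intervals include 0 and also differences of more than 1 on the log2 scale. Each pair of comparisons shares a group of libraries, so no comparison is independent of the others.

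**Figure D2:**
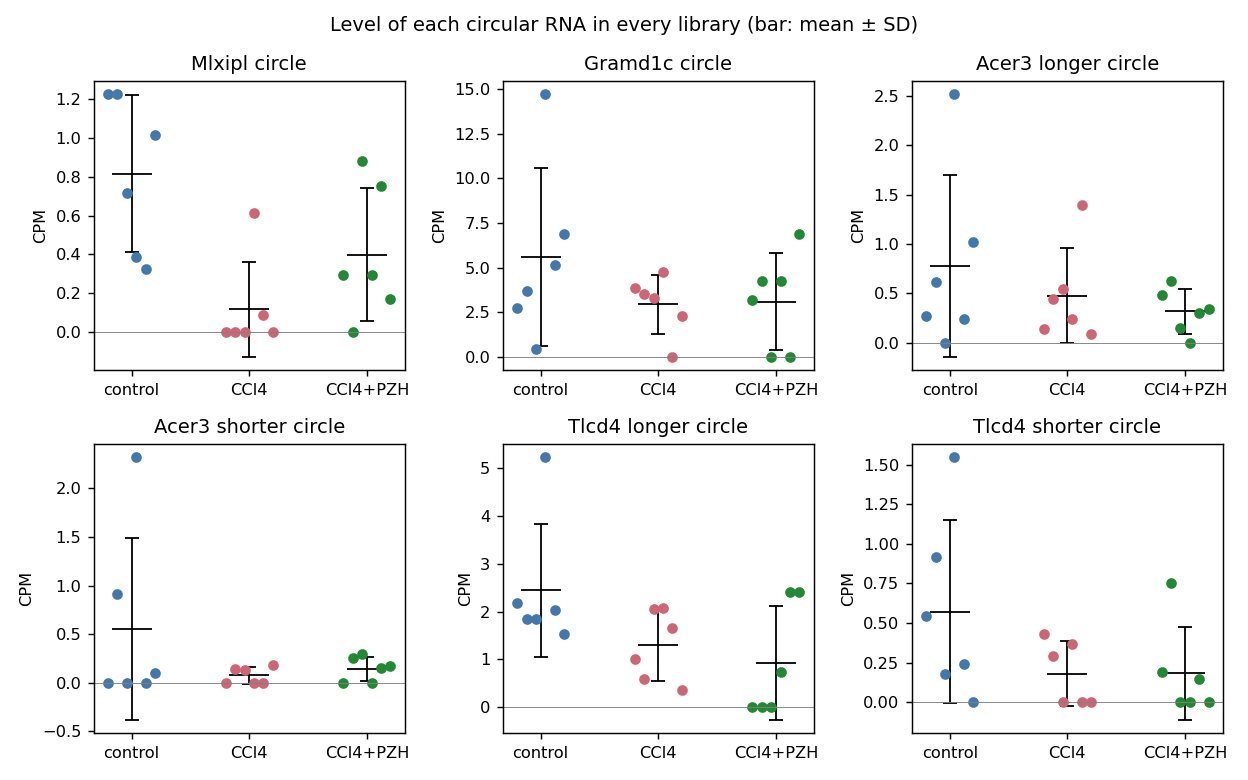
CPM of each circular RNA in every library (points), with the mean and SD of 6 libraries per group (bars); the vertical scale differs between panels. Mlxipl is at 0 in 4 of 6 CCl4 libraries and above 0 in 6 of 6 controls, and the longer Tlcd4 circle is at 0 in 3 of 6 CCl4+PZH libraries.

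The Gramd1c circle, from the cholesterol carrier gene, was the most abundant member. Controls ran from 0.449 (control 3) to 14.7 CPM (control 4) with a median of 4.41, CCl4 livers from 0 to 4.77 with a median of 3.40, and CCl4+PZH livers from 0 to 6.87 with a median of 3.74. The means were 5.60 ± 4.97, 2.95 ± 1.65 and 3.11 ± 2.69 CPM (SD, n = 6 each), so the groups overlapped over most of their range. Per 1000 table reads the medians were 21.0, 21.3 and 20.5. The control range narrowed on this scale, to between 9.501 and 46.02.

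Gramd1c was listed at 0 in 3 libraries in which the level of the others would give many reads. At the median share of the other libraries of its group, 31.8 reads would be counted in CCl4 7, 38.9 in CCl4+PZH 3 and 33.3 in CCl4+PZH 7. Such zeros were frequent in the table: of the 20 circles of highest mean share, 18 had at least 1 library at 0. The cause was not tested. limma gave −0.91 (95% interval −2.67 to 0.86; adjusted p = 0.818) for CCl4 against control, −0.54 (adjusted p = 0.969) for CCl4+PZH against CCl4 and −1.45 (adjusted p = 0.763) for CCl4+PZH against control. The second of these turned to 0.14 without either CCl4+PZH 3 or CCl4+PZH 7, the 2 treated libraries at 0.

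**Figure D3:**
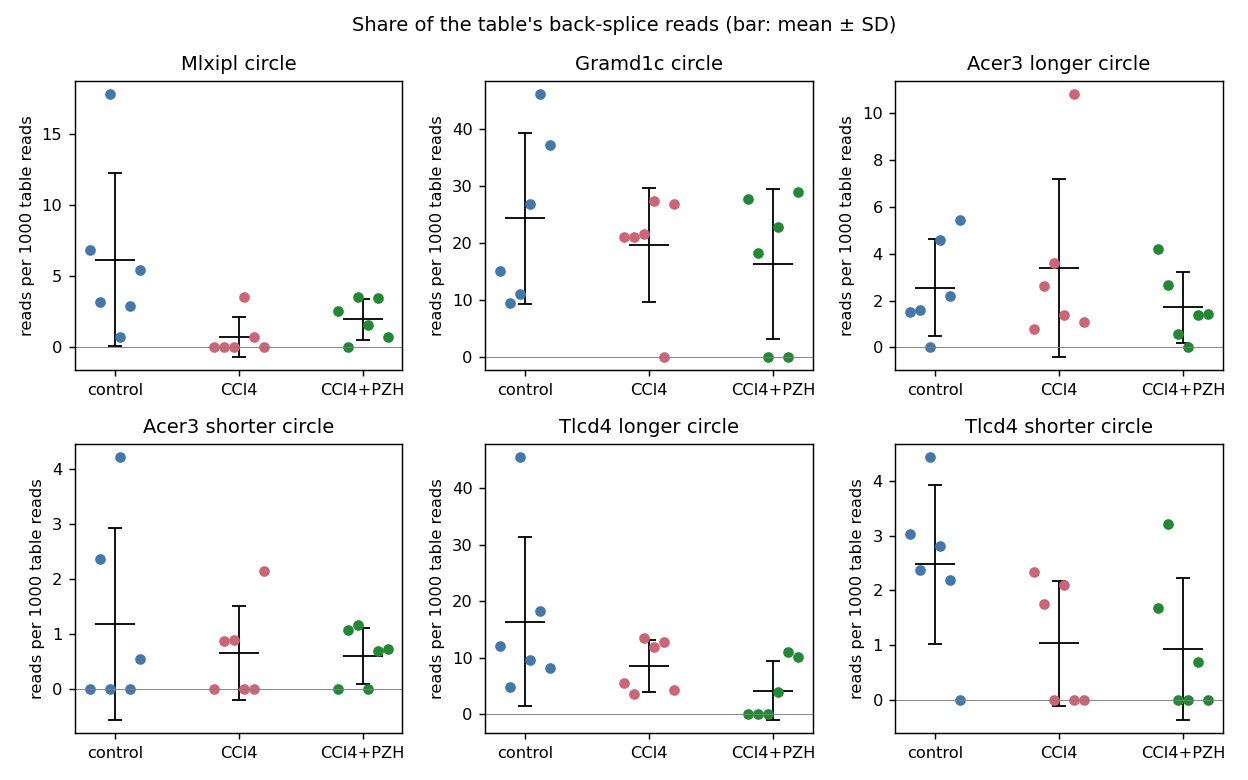
Reads of each circular RNA per 1000 back-splice reads of the table in every library (points), with the mean and SD of 6 libraries per group (bars); the vertical scale differs between panels. Gramd1c has medians of 20.5 to 21.3 in the 3 groups, and Mlxipl is highest in control 3 at 17.8.

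The Acer3 circles, from the ceramidase gene, were low. The longer ran from 0 to 2.52 CPM in controls (median 0.442), from 0.0919 to 1.40 in CCl4 livers (median 0.341) and from 0 to 0.629 in CCl4+PZH livers (median 0.322). It was above 0 in 16 of 18 libraries, and every CCl4 value lay within the control range in CPM, while 1, that of CCl4 7, lay above it per 1000 table reads. limma gave −0.29 (95% interval −1.68 to 1.10; adjusted p = 0.90) for CCl4 against control. That difference lay beside the median of all 434, −0.28, and was positive, 0.23, with values scaled to the reads of the table. The treated livers stood at −0.32 against CCl4 and −0.61 against control.

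The shorter Acer3 circle was above 0 in 3 controls, 3 CCl4 and 4 CCl4+PZH livers, and beyond controls 2 and 4, at 0.918 and 2.32 CPM, no library exceeded 0.294 CPM. The differences were −0.77 (limma, adjusted p = 0.730) for CCl4 against control, 0.36 for CCl4+PZH against CCl4 and −0.42 for CCl4+PZH against control. The first and last were positive, 0.28 and 0.63, with controls 1, 5 and 8 alone, the set without both high controls.

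The longer Tlcd4 circle was above 0 in 6 of 6 controls, 6 of 6 CCl4 livers and 3 of 6 CCl4+PZH livers. Controls ran from 1.52 to 5.23 CPM (median 1.94), CCl4 livers from 0.368 to 2.08 (median 1.33) and CCl4+PZH livers from 0 to 2.41 (median 0.369). Treated replicates 1, 2 and 3 were at 0, replicate 6 was at 0.738, and replicates 7 and 8 were at 2.41 and 2.40, above every CCl4 liver in CPM. The means were 2.44 ± 1.38, 1.29 ± 0.746 and 0.926 ± 1.18 CPM (SD, n = 6 each), from 130, 66 and 35 reads. In CPM, 3 treated libraries lay below and 2 above all CCl4 livers. The zeros of treated replicates 2 and 3 leave room by counting error alone for 0.377 and 0.441 CPM, above the lowest CCl4 liver at 0.368.

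Per 1000 table reads the longer Tlcd4 circle had medians of 10.8 in controls, 8.67 in CCl4 livers and 1.96 in CCl4+PZH livers, with control 3 highest at 45.6. On this scale 3 treated libraries lay below all CCl4 livers and 0 above. The 3 treated zeros stand where 4.69, 7.34 and 6.71 reads would be counted at the median share of the other libraries of the group. These numbers are lower than those for the Gramd1c zeros, but exceed the 3 reads that a 0 leaves room for by counting error alone. The other treated zeros enter each median. The treated libraries above 0 held 3.93, 10.96 and 10.12 reads per 1000. The cause of these zeros was not tested.

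For CCl4+PZH against control, limma gave the longer Tlcd4 circle −2.26 (SE 0.79, 95% interval −3.81 to −0.71), with an unadjusted p of 0.00431 at rank 4 of 434 and an adjusted p of 0.468. The exact permutation p was 0.0455, which adjusted over 434 is 0.951, and 4 of 6 treated livers lay below every control. Over 35 alternatives the difference ran from −3.24 to −0.99, with the lowest adjusted p at 0.062, and with controls 1, 5 and 8 alone it was −2.04 (limma, adjusted p = 0.469). The value was −1.33 for CCl4+PZH against CCl4 (95% interval −2.88 to 0.22; limma, adjusted p = 0.804), and for CCl4 against control −0.93 (95% interval −2.49 to 0.62; limma, adjusted p = 0.773). None of the 3 passed.

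The shorter Tlcd4 circle ran from 0 to 1.55 CPM in controls (median 0.394), from 0 to 0.429 in CCl4 livers (median 0.146) and from 0 to 0.754 in CCl4+PZH livers (median 0.0754). It was above 0 in 5, 3 and 3 libraries, from 22, 8 and 9 reads. limma gave −1.0 (adjusted p = 0.702) for CCl4 against control, −0.09 for CCl4+PZH against CCl4 and −1.09 (adjusted p = 0.763) for CCl4+PZH against control.

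**Figure D4:**
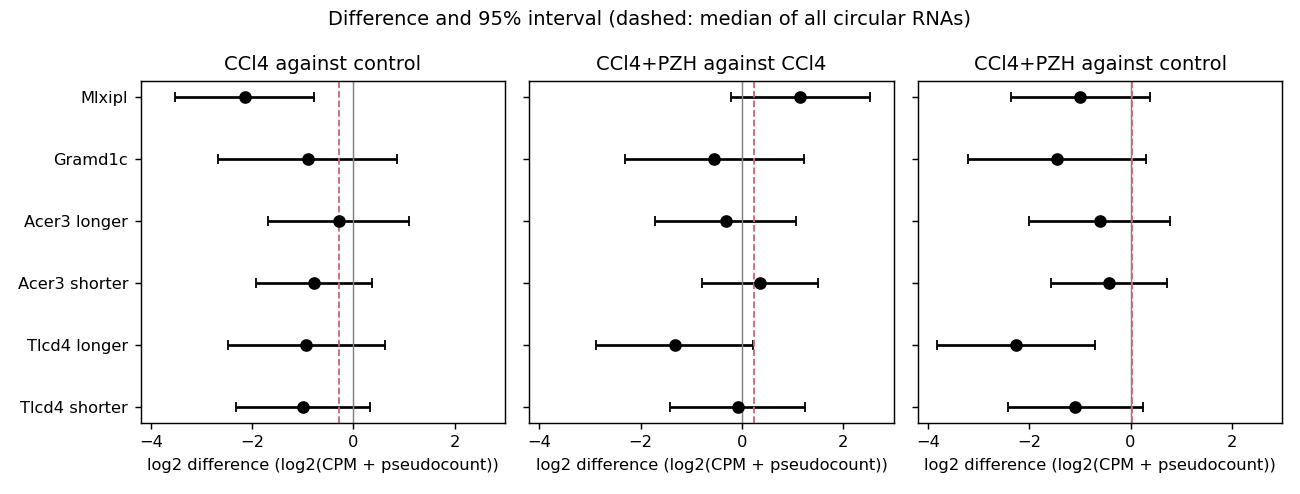
Difference of each circular RNA on the log2(CPM + pseudocount) scale (points) with its 95% interval (lines) in the 3 comparisons; the dashed line is the median of all 434. The interval excludes 0 for Mlxipl in CCl4 against control and for the longer Tlcd4 circle in CCl4+PZH against control, and neither passed adjustment.

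In each comparison limma called 0 of 6 members at an adjusted p under 0.05. For CCl4 against control, 3 of all 434 (0.691%) were called. At an unadjusted p under 0.05, 1 of 6 members, Mlxipl, was lower, against 6.22% of all 434, and 6 of 6 members had negative differences, against 62.9% of all. Their median was −0.92, against −0.28. With values scaled to the reads of the table, 5 of 6 were negative. For CCl4+PZH against CCl4, 0 of 434 (0%) were called. At the unadjusted threshold there were 0 of 6 members, against 5.53% of all 434 in either direction, and 4 of 6 members were negative with a median of −0.20, against 30.2% and 0.23 over all 434. With edgeR and the implied totals, 2 of 6 were negative, with a median of 0.10. For CCl4+PZH against control, 1 of 434 (0.23%) was called. The longer Tlcd4 circle alone was lower at the unadjusted threshold, 1 of 6 against 1.84% of all, and 6 of 6 were negative with a median of −1.04, against 47.7% and 0.02 over all 434. edgeR and DESeq2 on the recovered reads also called 0 of 6 in each comparison. Members that share a host share sequence, so the 6 are not independent.

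Where a host had 2 circles, the longer gave most of its reads. Of 98 Acer3 reads, 26 (26.5%, exact binomial 95% interval 18.1% to 36.4%) belonged to the shorter circle, with 34.8% in the control group, 12.9% in CCl4 livers and 28.6% in treated livers. Single libraries moved these shares by over 1.5 times: the control share was 19.1% without control 4, and the CCl4 share was 26.7% without CCl4 7 and 7.14% without CCl4 8. Of 270 Tlcd4 reads, 39 (14.4%, 10.5% to 19.2%) did, with 14.5%, 10.8% and 20.5%. Without CCl4+PZH 2 the last was 7.89%. These group shares have overlapping intervals within each host, but the intervals pool the reads of 6 libraries and leave out the spread between mice. The longer Acer3 circle exceeded the shorter in 13 of 18 libraries and was below it in 3, and the longer Tlcd4 circle exceeded the shorter in 15 and was below it in 2, CCl4+PZH 1 and 2, where the longer was at 0.

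**Figure D5:**
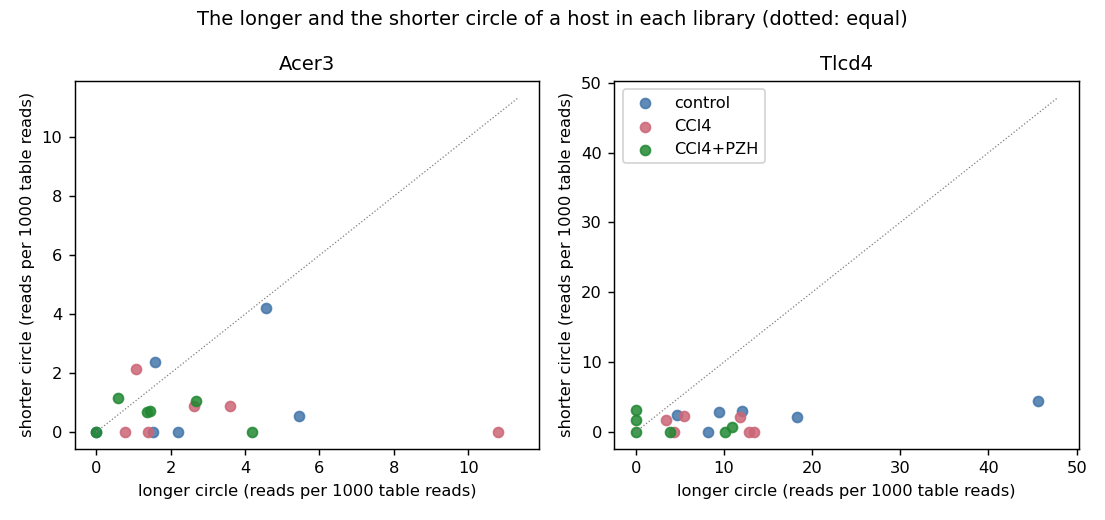
Reads per 1000 table reads of the longer (horizontal) and the shorter circle (vertical) of Acer3 and of Tlcd4 in each of 18 libraries, coloured by group; the dotted line marks equal values. Most libraries lie below the line, and 2 CCl4+PZH libraries have Tlcd4 reads of the shorter circle alone.

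Levels of the members were weakly related to one another. Spearman's rho between pairs of members over the 18 libraries, in reads per 1000, ran from −0.39 to 0.30, and the 2 circles of 1 host gave 0.15 (Acer3) and 0.14 (Tlcd4). Among 236 circles above 0 in 12 or more libraries, the one most like Mlxipl was from Ttc39c, at rho 0.81 over 18 libraries that share the group differences. Within groups of 6 libraries the rho was 1.0 (control), 0.69 (CCl4) and 0.49 (CCl4+PZH). Ttc39c ran from 4.58 to 18.9 reads per 1000 in controls, 0 to 2.096 in CCl4 and 0.838 to 6.44 in CCl4+PZH livers. The next most like Mlxipl were Gphn (0.61) and Egfr (0.60). Nearest to Gramd1c were Esco1 (0.55), Dennd1b (0.49) and Fam135a (0.48); to the longer Acer3 circle Fam135a (0.59), Alg12 (0.58) and Farsa (0.53); to the shorter Mark3 (0.57), Eri3 (0.57) and Alg13 (0.54). Nearest to the longer Tlcd4 circle were Foxp1 (0.63), Psd3 (0.59) and Ces1c (0.52), and to the shorter Hnrnpu (0.66), Man2a1 (0.65) and Plxnd1 (0.53). Each is the highest of many comparisons between low counts.

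Other genes of lipid metabolism had 27 circles in 21 hosts. limma called 0 of 27 in each comparison, as did edgeR and DESeq2 on the recovered reads. For CCl4 against control 22 of 27 had negative differences with a median of −0.44, and 4 were lower at an unadjusted p under 0.05; of all 434, 62.9% were negative with a median of −0.28, and 6.22% were lower at that threshold. With each library centred on its own median, 12 of 27 (44.4%) were negative, against 33.9% of all 434. Between CCl4+PZH and CCl4, 17 of 27 were positive with a median of 0.12 and 0 were under the unadjusted threshold, against 69.8% positive and a median of 0.23 over all 434. With values scaled to the reads of the table, 12 of these 27 were positive, against 51.4% of all. Against control, 19 of 27 differences of treated livers were negative with a median of −0.27, and 3 lower and 1 higher were under the unadjusted threshold, against 47.7% negative, a median of 0.02, and 1.84% lower and 3.23% higher over all 434.

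Within the lists, the 6 circles of fatty acid and triglyceride genes had 6 of 6 negative differences in CCl4 against control, with a median of −0.83, and 5 of 6 with values scaled to the reads of the table. Hacl1, an enzyme of fatty acid alpha-oxidation, had the smallest p against control, at −0.95 (limma, adjusted p = 0.551) in CCl4 and −0.91 (adjusted p = 0.763) in CCl4+PZH livers. Among lipid transcription regulators, Mlxipl had the smallest p in all 3 comparisons. The 3 other circles gave 2 negative and 1 positive difference in CCl4 livers, and 0 negative after centring. In the sterol transport and cholesterol list, 9 of 12 circles other than Gramd1c were negative in CCl4 livers, and 5 of 12 after centring. The lowest p there belonged to a circle of Slco1b2, a hepatocyte uptake transporter that the hepatocyte list also holds, at −1.88 (limma, adjusted p = 0.201) in CCl4 and −1.46 (adjusted p = 0.763) in CCl4+PZH livers against control. Abca6, an ABC transporter, was at 0.85 (limma, adjusted p = 0.851) in CCl4+PZH against CCl4.

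The sphingolipid list had 1 circle beside those of Acer3, from Sptlc2, a subunit of the enzyme that starts sphingolipid synthesis, at −0.07 in CCl4 against control, 0.81 (limma, adjusted p = 0.851) in CCl4+PZH against CCl4 and 0.75 (adjusted p = 0.882) in CCl4+PZH against control. In the membrane phospholipid and TLC domain list, 4 of 5 circles other than those of Tlcd4 were negative in CCl4 livers. After centring 3 of 5 were. Of all 434, 62.9% were negative before centring and 33.9% after it. The smallest p belonged to Atp9b, a P4-type ATPase, at −1.15 (limma, adjusted p = 0.649), and the longer Tlcd4 circle had the smallest p of that list in both comparisons with CCl4+PZH.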

How the data were processed

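Ribosomal RNA-depleted liver RNA was extracted with TRIzol, made into NEBNext libraries and sequenced on a HiSeq instrument as paired reads of 150 bp, per the labels' protocols. The submitters' processing notes list Bowtie2 2.5.1, HISAT2 2.2.1, StringTie 2.1.5, FastQC 0.11.9 and cutadapt 4.2, with build GRCm38. Not given in the sources used here are which program called the circles, what total the CPM were scaled to and how the table was filtered. The deposited values are CPM, computed by the authors, for 434 circular RNAs, each above 0 in at least 9 of 18 libraries. Divided by the value of 1 read, 100% of the 7812 values came within 0.1 of whole reads, and the library totals (in M, the scale of CPM) that 1 read implies ran from 3.27 to 22.3. Among 45 pairs of libraries within groups chi-square per degree of freedom was at least 2.11, so each library was counted as its own sample.

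limma 3.58.1 (R 4.3.3) was fitted to log2(CPM + 0.13655), the median over libraries of the smallest value above 0, for all 434 circles and 18 libraries with 3 group means and an intensity trend; p-values were two-sided with Benjamini-Hochberg adjustment over 434. A filter of above 0 in 6 or more libraries removed none. edgeR 4.0.16 and DESeq2 1.42.0 were run on the recovered reads as alternatives, and edgeR with TMM factors called 5 circles in CCl4 against control, 0 in CCl4+PZH against CCl4 and 2 in CCl4+PZH against control. The fit was tested on simulated data. Hosts (429 of 434 circles) and start windows came from RefSeq tables of GRCm38.p6. Other steps used Python 3.11.15 with matplotlib 3.10.9, pandas 2.3.3, numpy 2.4.6 and scipy 1.17.1.

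The members and gene lists were chosen with earlier results of these data known. All members are named; from each lipid list, called circles or else that of smallest p in each comparison; and the 3 circles of highest Spearman rho with each member. A circle that this rule takes from the lists is not reported here.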

Additional observations from a re-analysis of the deposited data

Results flagged for a closer look

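Values of 4 libraries stood apart from the other 5 of their group, by a gap to the nearest that exceeded Dixon's 95% limit, a set share of the group's range. The Mlxipl circle was at 0.6115 CPM in CCl4 5, against 0 to 0.0874 in the other CCl4 livers. The longer Acer3 circle was at 1.3987 CPM in CCl4 7, against 0.0919 to 0.5485. The longer Tlcd4 circle was at 5.2256 CPM in control 4, the library of highest summed CPM, against 1.5249 to 2.1753. The shorter Tlcd4 circle was at 0.7545 CPM in CCl4+PZH 2, against 0 to 0.1942. For normally distributed values chance would flag about 1 in 20 groups, or 0.9 of the 18 groups examined. These CPM values are low counts with many zeros, so that rate need not hold here.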

How the results depend on the processing

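Over 18 member differences and 35 alternatives, 594 of 624 values kept their direction and their side of the threshold, 29 changed sign and 1 came to pass. Several alternatives could not move a difference, so this tally overstates stability. They were no filter, the stricter filter, exact permutation and the fit to the compared groups alone. Leaving out a library of the group not compared could not move it either. The 2 circles above 0 in fewer than 12 libraries gave no value under the stricter filter. Reversals touched 7 differences, none past the threshold, the largest of size 0.63. Controls 3 and 4 were left out together as an alternative chosen after seeing the data; Mlxipl was then at −2.34 in CCl4 against control (limma, adjusted p = 0.0907).

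Mlxipl in CCl4 against control was −2.21 and passed (limma, adjusted p = 0.0436) with values scaled to the reads of the table, and without each replicate it ran from −2.53 to −2.02. The longer Acer3 circle in that comparison was 0.233 scaled to the reads of the table, 0.235 centred on library medians, 0.213 with quantile normalization, 0.243 with edgeR and TMM, 0.038 with DESeq2 and 0.117 with array weights; without each replicate it ran from −0.717 to 0.139. With controls 1, 5 and 8 only, the shorter Acer3 circle was 0.279 in CCl4 against control and 0.634 in CCl4+PZH against control; the latter was 0.317 with array weights and ran from −0.683 to 0.151 without each replicate. In CCl4+PZH against CCl4 the shorter Acer3 circle was −0.145 after centring. There, Gramd1c was 0.075 with edgeR and implied totals and 0.293 with DESeq2, and the shorter Tlcd4 circle was 0.121, 0.087 and, with array weights, 0.155. Without each replicate Gramd1c ran from −1.329 to 0.135, the longer Acer3 circle from −0.544 to 0.006 and the shorter Tlcd4 circle from −0.461 to 0.136. Other causes of these changes were not tested.

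The number of circles called in CCl4 against control, 3, was 1 with a pseudocount 4 times as high or of 1 CPM, with the filter of 12 or more libraries and with edgeR and implied totals, 5 scaled to the reads of the table and with edgeR and TMM, 9 after centring and 0 by exact permutation. It ran from 1 to 6 without each replicate: 6 without control 3, and 1 without control 1, 4 or 8 or CCl4 1, 2, 7 or 8. In CCl4+PZH against control, 1 was called; it was 0 with the filter of 12 or more and by exact permutation, 2 with edgeR under TMM or implied totals, 3 with array weights and 1 to 3 without each replicate, with 3 without control 2. In CCl4+PZH against CCl4, 0 were called in limma and under every alternative, and 24 were under an unadjusted p of 0.05. Between libraries of the same replicate number, 13 pairs had correlations of −0.154 to 0.079, none over 0.1, so the numbers were not taken as pairs. With the number as a replicate block, 1 was called in CCl4 against control, 0 in CCl4+PZH against CCl4 and 1 in CCl4+PZH against control; Mlxipl was −2.15 in CCl4 against control, and in CCl4+PZH against CCl4 Gramd1c was 0.268, the longer Acer3 circle 0.442 and the shorter Tlcd4 circle 0.405. Few reads limit the shorter circles most, at 26 and 39 in 18 libraries.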
